A study of Mus musculus with 30 samples.

Results

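The genes described here encode NRF2, its repressor KEAP1, and the factors that work with them. They are Nfe2l2, Keap1, Nfe2l1, Cul3, Rbx1, Bach1, Mafg, Maff, Mafk, and Sqstm1, chosen by symbol as 10 of the 55335 genes in the count table of mouse liver RNA-seq. Livers came from 30 male mice of 7 to 10 weeks on the albino C57BL/6J background, with 1 library per mouse and 5 mice in each of 6 groups. The groups were wild-type mice, mice homozygous for the Keap1 C151S knock-in allele (C151S), and mice homozygous for the Nrf2-knockout allele of Nfe2l2, each given 1 oral dose of CDDO-Me at 30 µmol/kg or of vehicle (DMSO, Cremophor-EL, and PBS) 24 hours before the liver was taken. CDDO-Me (bardoxolone methyl) is a synthetic triterpenoid that modifies reactive cysteines of proteins. Both mutations are present in every cell of the animal. The mutant mice were bred from homozygous parents whereas the wild-type mice came from a supplier, so genotype and colony cannot be told apart. Each library had 23667068 to 42073169 reads counted on genes (median 33229925). The albumin gene Alb was the most abundant of 6 hepatocyte markers, which summed to between 90810 and 121100 counts per 1e+06 counts on genes (CPM) as group means.

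NRF2, the product of Nfe2l2, is a basic leucine zipper factor that activates genes of detoxification and of glutathione and thioredoxin metabolism. In the unstressed cell, KEAP1 dimers bind NRF2 and present it to a ubiquitin ligase built on CUL3 and RBX1, and NRF2 is degraded. Electrophiles modify sensor cysteines of KEAP1, of which Cys151 is the one exchanged in C151S mice, and newly made NRF2 then accumulates, pairs with a small Maf protein (MAFG, MAFK, or MAFF), and binds antioxidant response elements (AREs). BACH1 occupies the same elements as a repressor, NRF1 (Nfe2l1) is a related factor best known for proteasome genes, and p62 (Sqstm1) is an autophagy receptor that binds KEAP1 and is itself a product of an NRF2-dependent gene. Most of this control is exerted on proteins, which counts of mRNA do not measure.

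The site of the C151S mutation is shown because it separates 2 of the 3 genotypes. In the mouse reference genome (GRCm38), the codon of Cys151 in Keap1 lies at chr9:21237257-21237259 on the minus strand, in exon 2 of 6 and within a reading frame of 624 codons. The reference stretch chr9:21237227-21237289 is printed 5′ to 3′ on the Keap1 strand, from the GENCODE transcript sequence, and the capitals mark the cysteine codon.
Keap1 Cys151 codon: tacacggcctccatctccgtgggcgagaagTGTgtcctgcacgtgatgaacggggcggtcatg
A count per gene does not separate this codon from a mutated one, so the C151S genotype was taken from the labels.

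The promoters of the members were searched for the core of the ARE because NRF2 and small Maf proteins bind this element. The 16 RefSeq windows (GRCm38, 250 bases before to 50 bases after each annotated start) of the 10 members were read on both strands for the words TGACNNNGC and TGAGNNNGC, which differ in 1 letter, so that 1 stretch of 1 strand cannot match both. Of all 32851 mouse promoter windows of this length, 12.4% hold TGACNNNGC, 17.6% hold TGAGNNNGC, and 27.8% hold either. TGACNNNGC was found for 4 members, in the only window of Nfe2l2, of Mafg, and of Mafk and in 1 of 3 windows of Maff. The shares for all mouse promoters are per window, and a member with several windows has more chances of a match. Only TGAGNNNGC was found for Nfe2l1, in 4 of its 5 windows. Of those 4 windows 3 overlap and hold the same match, so that Nfe2l1 has 2 distinct matches. Neither word was found in the windows of Keap1, Cul3, Rbx1, Bach1, and Sqstm1. The stretches upstream of the start that hold TGACNNNGC follow, 5′ to 3′ on the gene's strand, at chr2:75704865-75704913 (minus strand) for Nfe2l2, chr11:120633731-120633797 (minus) for Mafg, chr15:79346479-79346572 (plus) for 1 of 3 Maff windows, and chr5:139791493-139791535 (plus) for Mafk. The capitals mark the matches, which for Mafg and Mafk lie on the other strand, and the second match in Maff is TGAGNNNGC.
Nfe2l2 promoter: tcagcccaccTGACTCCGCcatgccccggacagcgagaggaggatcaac
Mafg promoter: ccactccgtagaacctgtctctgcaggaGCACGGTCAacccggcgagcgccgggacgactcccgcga
Maff promoter: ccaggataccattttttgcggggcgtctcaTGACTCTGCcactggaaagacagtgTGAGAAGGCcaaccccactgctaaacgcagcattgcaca
Mafk promoter: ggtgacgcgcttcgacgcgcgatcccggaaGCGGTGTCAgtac
Counted from the start, the centres of the TGACNNNGC matches lie at base -236 in Nfe2l2, -218 in Mafg, -108 in Maff, and -9 in Mafk. A match of these letters describes the window and is not a measured binding site.

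The mutant libraries fell into separate sets that the labels do not give, and the values are reported with that in view. Arntl, a core gene of the circadian clock, had values of -1.15 to 0.90 (log2 CPM) in 11 libraries, well below the 2.52 to 4.79 of the other 19. The low set holds 2 of 5 C151S mice given vehicle, 3 of 5 given CDDO-Me, 3 of 5 Nrf2-knockout mice given vehicle, and 3 of 5 given CDDO-Me, but no wild-type mouse. A set of this kind comes from the data and is not a group of the study, and its part in the differences between genotypes was not tested beyond the values given with and without the low set.

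Per kilobase of exon, the scale on which different genes can be set side by side, Sqstm1 was the most abundant member in vehicle-treated wild-type mice, at 125 ± 16.2 CPM per kilobase (SD, n = 5). Nfe2l1 followed at 23.4 ± 2.06, Nfe2l2 at 17.4 ± 1.09, Mafg at 16.1 ± 0.785, Cul3 at 13.2 ± 0.509, and Keap1 at 11.7 ± 1.51 CPM per kilobase. Lower levels were seen for Bach1 at 6.84 ± 1.12, Rbx1 at 5.89 ± 0.827, Mafk at 3.74 ± 0.802, and Maff at 1.95 ± 0.872 CPM per kilobase. The length is that of all annotated exons together, which is 4551 bases for Rbx1, a gene with a short coding sequence, and places it lower than a single transcript would. On this scale Mafg held between 68.2% and 78.0% of the small Maf total as group means, with Mafk next and Maff last in the mean of each of the 6 groups.

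**Figure D1:**
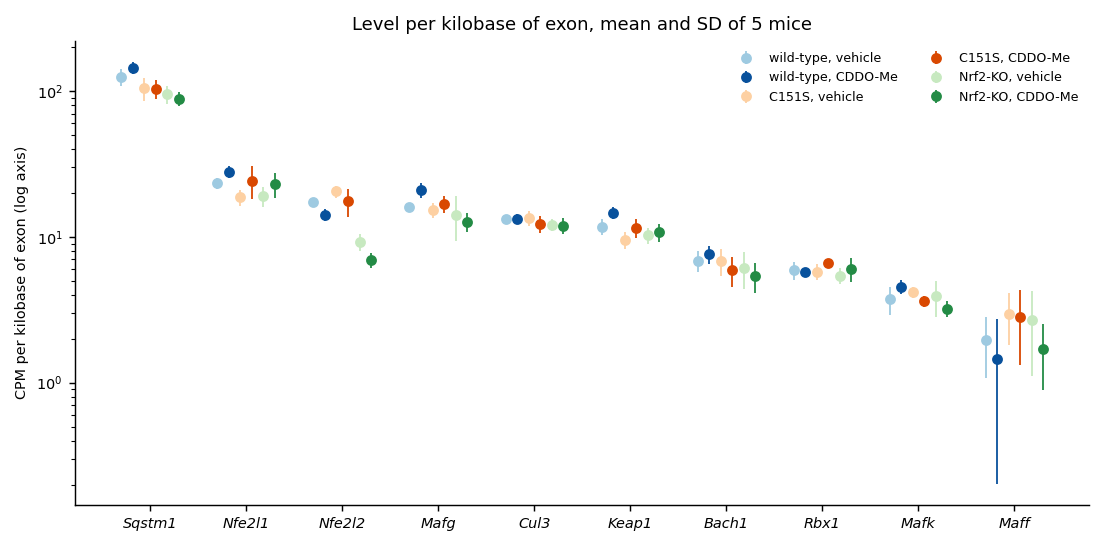
Level of each member as CPM per kilobase of exon (log axis), with the mean and SD of 5 mice for each of the 6 groups. Sqstm1 lies above the other members in all 6 groups, Maff has the widest bars, and Nfe2l2 is the member with the clearest step down in Nrf2-knockout mice.

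Nfe2l2 was lower in Nrf2-knockout mice than in either other genotype, and in wild-type mice it fell after CDDO-Me. It lies on chromosome 2 of GRCm38, from 75675513 to 75704641 (ENSMUSG00000015839.6). Vehicle-treated wild-type mice had 68.9, 64, 66.4, 70.97, and 60.4 CPM and CDDO-Me-treated wild-type mice 52.8, 47.9, 59.6, 57.5, and 49.8 CPM. C151S mice had 79.7, 83.4, 84.9, 74.9, and 65.97 CPM after vehicle and 41.96, 68.6, 71.9, 80.2, and 69.7 CPM after CDDO-Me. Nrf2-knockout mice had 31.2, 37.1, 39.8, 38.2, and 29.5 CPM after vehicle and 22.4, 23.3, 27.7, 28.7, and 29.2 CPM after CDDO-Me. All 10 knockout values lie below all 20 values of the other genotypes, and 1 CDDO-Me-treated C151S mouse at 42.0 CPM lies apart from the other 4 of its group. In order, the means were 77.8 ± 7.64 CPM in vehicle-treated C151S, 66.5 ± 14.4 in CDDO-Me-treated C151S, 66.1 ± 4.15 in vehicle-treated wild-type, 53.5 ± 4.99 in CDDO-Me-treated wild-type, 35.1 ± 4.54 in vehicle-treated knockout, and 26.3 ± 3.17 in CDDO-Me-treated knockout mice (SD, n = 5). The first 3 of these groups overlap with their neighbours, whereas the last 3 are each set off from the group above by a gap.

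Reads of Nfe2l2 remained in every knockout mouse. Between 825 and 1832 reads were counted in each knockout library, far above the floor of 3 counts. Against wild-type mice, Nfe2l2 was 0.539-fold under vehicle (log2 fold change -0.89, SE 0.10, adjusted p = 0.000394) and 0.498-fold under CDDO-Me (log2 fold change -1.005, SE 0.11, adjusted p = 9.19e-05) by the quasi-likelihood F-test of edgeR. Against C151S mice it was 0.452-fold under vehicle (log2 fold change -1.15, SE 0.12, adjusted p = 0.00119) and 0.396-fold under CDDO-Me (log2 fold change -1.34, SE 0.16, adjusted p = 0.00732). The 4 differences held without each mouse in turn. With only the high Arntl set the difference from C151S mice lost its call under both treatments, with 2 knockout mice left in each comparison. Its log2 fold change there was -1.29 under vehicle (adjusted p = 0.0817) and -1.08 under CDDO-Me (adjusted p = 1.0) in edgeR. Which exons the remaining reads cover is not resolved by a count per gene.

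Between C151S and wild-type mice the difference in Nfe2l2 did not pass the test. It was 0.25 on the log2 scale under vehicle (SE 0.085, adjusted p = 0.0885) and 0.33 under CDDO-Me (SE 0.15, adjusted p = 0.192, edgeR). Under vehicle, the adjusted p was 0.0477 by DESeq2 and 0.00665 with only the high Arntl set, in which 3 C151S mice had between 79.7 and 84.9 CPM of Nfe2l2. After CDDO-Me the log2 difference in Nfe2l2 was 0.06 (adjusted p = 0.903) with only the high set and 0.08 (adjusted p = 0.834) with the set as covariate, whereas without the C151S mouse lowest in Nfe2l2 after CDDO-Me (replicate 1) it was 0.46 (adjusted p = 0.00967, edgeR).

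In wild-type mice Nfe2l2 fell to 0.805-fold after CDDO-Me (log2 fold change -0.31, SE 0.073, adjusted p = 0.0298, edgeR), a change below the size of 0.5 that a full call asked for, and the treated and untreated mice did not overlap. In C151S mice the change was -0.23 on the log2 scale (SE 0.15, adjusted p = 0.496), or -0.11 without its mouse at 42.0 CPM, and in Nrf2-knockout mice, whose groups did not overlap either, it was -0.43 (SE 0.12, unadjusted p = 0.00424, adjusted p = 0.547 by edgeR). The means were thus lower after CDDO-Me in all 3 genotypes, and only the wild-type change passed after adjustment. The difference in this change between genotypes was -0.08 (SE 0.17) for wild-type minus C151S and 0.12 (SE 0.17) for wild-type minus knockout, with adjusted p values of 0.937 and 0.974. The adjusted p of the wild-type change was under 0.05 in 4 of the 10 fits without 1 mouse (0.0252 to 0.0803), and it was 0.36 in a fit of all 30 libraries. Liver tissue holds several cell types, and fewer cells of a type cannot be told apart from less RNA per cell for any gene described here.

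Of the KEAP1 ligase genes, Keap1 passed the test in 1 comparison and Cul3 and Rbx1 in none. Keap1 (chromosome 9, 21229730 to 21239361) had 49.6, 64.6, 48.5, 60.4, and 52.3 CPM in vehicle-treated and 72.4, 77.5, 61.6, 62.5, and 69.1 CPM in CDDO-Me-treated wild-type mice. C151S mice had 38.1, 47.1, 38.9, 49.4, and 51.4 CPM after vehicle and 64.9, 42.04, 53.6, 54.2, and 56.1 CPM after CDDO-Me. Nrf2-knockout mice had 51.7, 52.5, 41.9, 40.5, and 53.4 CPM after vehicle and 61.4, 49.3, 47.7, 52.7, and 41.1 CPM after CDDO-Me. CDDO-Me-treated wild-type mice were the highest group, with a mean of 68.6 ± 6.71 CPM, and overlapped with vehicle-treated wild-type mice (55.1 ± 7.07 CPM) in their range. The other 4 group means ran from 54.2 ± 8.15 CPM in CDDO-Me-treated C151S through 50.5 ± 7.46 and 47.99 ± 6.24 CPM in CDDO-Me-treated and vehicle-treated knockout to 44.98 ± 6.11 CPM in vehicle-treated C151S mice, each overlapping with the next.

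After CDDO-Me, the log2 fold change of Keap1 was 0.31 in wild-type (SE 0.096, adjusted p = 0.0964), 0.26 in C151S (SE 0.12, adjusted p = 0.372), and 0.06 in knockout mice (SE 0.12, adjusted p = 0.92), none of which passed in edgeR. DESeq2 gave the wild-type change an adjusted p of 0.0439. Among CDDO-Me-treated mice, Keap1 was lower in knockout than in wild-type mice (log2 fold change -0.43, SE 0.11, adjusted p = 0.0232, edgeR), the only one of the 12 comparisons in which it passed, and the groups did not overlap. The adjusted p stayed under 0.05 in 7 of 10 fits without 1 mouse. The antisense gene Gm16754 overlaps Keap1 on the other strand and was counted apart from it. Between C151S and wild-type mice Keap1 differed by -0.28 under vehicle (SE 0.11, adjusted p = 0.13) and -0.32 under CDDO-Me (SE 0.11, adjusted p = 0.106), both short of the threshold, and the adjusted p under vehicle was 0.0346 with only the high Arntl set.

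The ratio of Nfe2l2 to Keap1 CPM in each mouse joins both changes. Its mean was 1.22 ± 0.165 in vehicle-treated and 0.791 ± 0.147 in CDDO-Me-treated wild-type mice (SD, n = 5), and the groups did not overlap (0.990 to 1.39 against 0.618 to 0.969). C151S mice had 1.77 ± 0.379 after vehicle and 1.27 ± 0.377 after CDDO-Me, and knockout mice 0.751 ± 0.187 and 0.535 ± 0.129, with overlap in both genotypes. The ratio is given as a description of mRNA, with no test.

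Cul3 is the scaffold and Rbx1 the RING subunit of the ligase, and 12 comparisons were made of each. Cul3 (chromosome 1, 80264923 to 80340480) ranged from 48.8 to 78.2 CPM over the 30 mice, with group means between 58.3 ± 7.38 CPM in CDDO-Me-treated knockout and 65.7 ± 8.15 CPM in vehicle-treated C151S mice. Its log2 fold change after CDDO-Me in wild-type mice was 0.01 (SE 0.061, adjusted p = 0.958, edgeR). Rbx1 (chromosome 15, 81466296 to 81476369) ranged from 20.3 to 33.1 CPM, with group means between 24.7 ± 3.09 CPM in vehicle-treated knockout and 30.03 ± 1.73 CPM in CDDO-Me-treated C151S mice. CDDO-Me-treated C151S and wild-type mice did not overlap in Rbx1, with all 5 C151S mice higher, but the difference did not pass (log2 fold change 0.23, SE 0.078, adjusted p = 0.102). A pseudogene, Rbx1-ps, is annotated for this gene, so reads shared with it could be missing from the count.

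**Figure D2:**
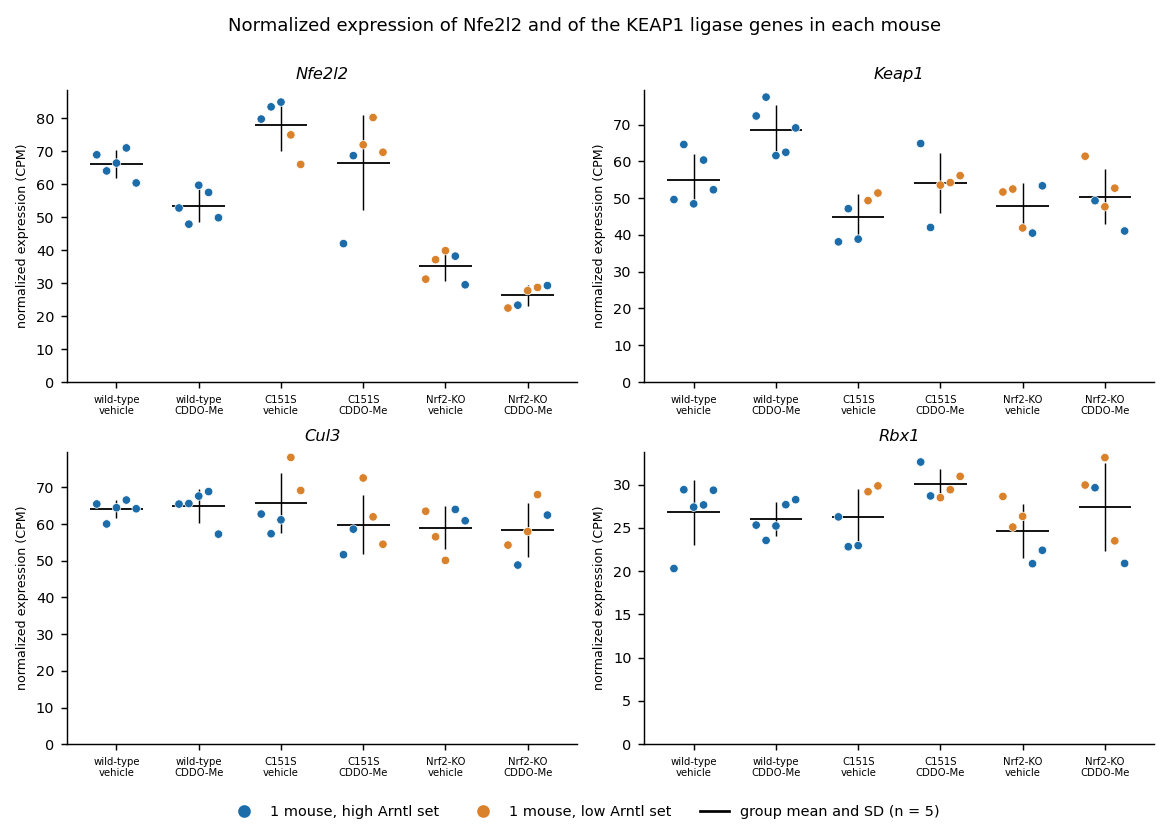
CPM of Nfe2l2, Keap1, Cul3, and Rbx1 in each of the 30 mice by genotype and treatment, with blue points for the high and orange points for the low Arntl set and black lines for the group mean and SD (n = 5). All knockout mice lie between 22.4 and 39.8 CPM of Nfe2l2, below every other mouse, while the Keap1, Cul3, and Rbx1 groups overlap for the most part.

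Of the small Maf genes, Mafg was the one whose change after CDDO-Me in wild-type mice passed in edgeR, at the adjusted p alone. No test compared its change with those of Mafk and Maff. Mafg (chromosome 11, 120625117 to 120633600) had 88.3, 92.8, 83.95, 95.1, and 92.5 CPM in vehicle-treated and 124, 101, 111, 115, and 138.5 CPM in CDDO-Me-treated wild-type mice. C151S mice had 82.8, 81.6, 73.7, 98.1, and 95.1 CPM after vehicle and 87.3, 77.9, 98.7, 94.7, and 113 CPM after CDDO-Me. Nrf2-knockout mice had 127, 74.6, 66.2, 60.6, and 69.8 CPM after vehicle and 89.8, 72.1, 65.2, 64.4, and 65.8 CPM after CDDO-Me. All 5 treated wild-type mice lie above all 5 untreated ones, the mutant groups overlap with each other, and 1 vehicle-treated knockout mouse at 127 CPM lies apart from the other 4. The group means ran from 118 ± 14 CPM in CDDO-Me-treated wild-type through 94.3 ± 13, 90.5 ± 4.41, and 86.2 ± 10.1 CPM in CDDO-Me-treated C151S, vehicle-treated wild-type, and vehicle-treated C151S mice to 79.7 ± 27.2 and 71.5 ± 10.7 CPM in vehicle-treated and CDDO-Me-treated knockout mice, each overlapping with the next.

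The rise of Mafg in wild-type mice was 1.30-fold (log2 fold change 0.37, SE 0.081, adjusted p = 0.0203, edgeR), again below the size of 0.5. In C151S mice the change was 0.12 (SE 0.11, adjusted p = 0.612), and in knockout mice -0.17 (SE 0.19, adjusted p = 0.844). The wild-type call held in 6 of 10 fits without 1 mouse, and its adjusted p was 0.313 in a fit of all 30 libraries. The difference between responses, 0.25 for wild-type minus C151S (SE 0.21, adjusted p = 0.782) and 0.54 for wild-type minus knockout (SE 0.21, unadjusted p = 0.0147, adjusted p = 0.583 by edgeR), did not pass. After CDDO-Me, Mafg was 0.614-fold in knockout against wild-type mice (log2 fold change -0.70, SE 0.11, adjusted p = 0.00201, edgeR), with no overlap, and the call held in 10 of 10 fits without 1 mouse. The difference between C151S and wild-type mice did not pass (-0.31, SE 0.11, adjusted p = 0.118), nor did that between knockout and C151S mice (-0.40, adjusted p = 0.429, edgeR). With the replicate number as a block the C151S difference from wild-type mice had an adjusted p of 0.0499 (-0.31, edgeR). With only the high Arntl set it was -0.50 (adjusted p = 0.106, edgeR). Under vehicle the knockout difference was -0.17 (SE 0.17, adjusted p = 0.491). Without replicate 1 of the vehicle-treated knockout mice, the highest of its group in Mafg, it was -0.39 (adjusted p = 0.0071), and with only the high Arntl set -0.44 (adjusted p = 0.0268, edgeR). Of the exon bases of Mafg, 2.21% are shared with Sirt7 on the same strand, and reads there could be assigned to neither.

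Mafk (chromosome 5, 139791513 to 139802653) was next to Mafg by level per kilobase. It had 17.3, 10.2, 12.52, 17.2, and 15.6 CPM in vehicle-treated and 19.1, 14.8, 16.7, 19.2, and 18.9 CPM in CDDO-Me-treated wild-type mice. C151S mice had 15.3, 17.9, 16.7, 17.4, and 14.5 CPM after vehicle and 14.7, 15.7, 13.2, 14.1, and 12.7 CPM after CDDO-Me. Nrf2-knockout mice had 22.3, 15.7, 12.7, 12.54, and 12.8 CPM after vehicle and 15.2, 11.7, 12.8, 11.99, and 11.2 CPM after CDDO-Me. Every group overlapped with its neighbour in the order of means, from 17.7 ± 1.94 CPM in CDDO-Me-treated wild-type to 12.6 ± 1.56 CPM in CDDO-Me-treated knockout mice. The log2 fold change of Mafk between those groups was -0.48 (SE 0.11, adjusted p = 0.0144, edgeR), with a range that overlaps in 1 knockout mouse at 15.2 CPM and 1 wild-type mouse at 14.8 CPM. The change after CDDO-Me was 0.28 in wild-type (adjusted p = 0.342), -0.22 in C151S (adjusted p = 0.355), and -0.28 in knockout mice (adjusted p = 0.7), so that its sign differed while no change passed. The differences between these changes had unadjusted p values of 0.02 and 0.0105 and adjusted p values of 0.51 and 0.516 in edgeR.

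Maff (chromosome 15, 79346621 to 79359076) was the lowest and most variable member. Its CPM ranged from 0.728 to 8.30 among CDDO-Me-treated wild-type mice and from 1.15 to 11.6 among CDDO-Me-treated C151S mice, and its coefficient of variation within groups lay between 38.3% and 86.2%. For comparison, that of Cul3 lay between 3.87% and 13.6%. No difference in Maff passed, and the largest, 0.95 on the log2 scale between CDDO-Me-treated C151S and wild-type mice, had an SE of 0.63 and an adjusted p of 0.372 (edgeR).

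Bach1 (chromosome 16, 87698945 to 87733346), the repressor that competes with NRF2 for the same elements, passed in none of the 12 comparisons in edgeR with all mice and no covariate. Its values ranged from 24.8 to 57.8 CPM over the 30 mice. The group means, in order, were 46.96 ± 6.94 CPM in CDDO-Me-treated and 42.3 ± 6.94 CPM in vehicle-treated wild-type, 42.1 ± 9.01 CPM in vehicle-treated C151S, 37.8 ± 10.8 CPM in vehicle-treated knockout, 36.5 ± 8.57 CPM in CDDO-Me-treated C151S, and 33.2 ± 7.71 CPM in CDDO-Me-treated knockout mice, all overlapping. The nearest to a call was knockout against wild-type after CDDO-Me (log2 fold change -0.48, SE 0.15, adjusted p = 0.0538, edgeR), and the same difference had an adjusted p of 0.0296 and a log2 fold change of -0.69 with only the high Arntl set. Between vehicle-treated knockout and wild-type mice the difference in Bach1 was -0.14 (adjusted p = 0.626) and became -0.64 (adjusted p = 0.0418, edgeR) with the Arntl set as covariate. In vehicle-treated knockout mice Bach1 was 24.8 and 28.3 CPM in the 2 mice of the high set and between 41.8 and 50.0 CPM in the 3 of the low set.

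Nfe2l1 (chromosome 11, 96817414 to 96829968), which encodes NRF1, passed in no comparison either. Wild-type mice had a mean of 127.5 ± 11.2 CPM after vehicle and 151.3 ± 14.3 CPM after CDDO-Me (SD, n = 5). The same means were 102 ± 12.9 and 132 ± 33.5 CPM for C151S mice and 103 ± 16.1 and 125 ± 23.8 CPM for knockout mice. The 3 means after CDDO-Me were higher than those after vehicle by 0.24, 0.37, and 0.27 on the log2 scale, with adjusted p values of 0.138, 0.355, and 0.684 in edgeR and overlap in each genotype. Without the CDDO-Me-treated C151S mouse highest in Nfe2l1 (replicate 1, 187 CPM) the C151S value was 0.20. Under vehicle, C151S mice differed from wild-type mice by -0.31 (SE 0.091, adjusted p = 0.057), with values of 0.0245 by DESeq2 and 0.0133 with only the high Arntl set for the adjusted p of Nfe2l1.

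Sqstm1 (chromosome 11, 50199366 to 50210827) was lower in knockout than in wild-type mice after CDDO-Me, and in C151S mice it was lower at the adjusted p alone. Wild-type mice had 407, 514, 386, 391, and 394 CPM after vehicle and 494, 433, 456, 479.5, and 559.7 CPM after CDDO-Me. C151S mice had 378, 409, 396, 253, and 319 CPM after vehicle and 389, 413, 303.5, 302, and 325 CPM after CDDO-Me. Nrf2-knockout mice had 315, 319.5, 246, 353, and 359.7 CPM after vehicle and 315, 318, 265.5, 260.5, and 333 CPM after CDDO-Me. All 5 CDDO-Me-treated wild-type mice lie above every mutant mouse, and the vehicle-treated wild-type mice lie above every knockout mouse. The order of means was 484.5 ± 48.1 and 418 ± 54.2 CPM in CDDO-Me-treated and vehicle-treated wild-type, 351 ± 64.7 and 346.5 ± 51.4 CPM in vehicle-treated and CDDO-Me-treated C151S, and 319 ± 45.1 and 298 ± 33 CPM in vehicle-treated and CDDO-Me-treated knockout mice, and neighbours in this order overlap.

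After CDDO-Me, Sqstm1 was 0.625-fold in knockout against wild-type mice (log2 fold change -0.68, SE 0.11, adjusted p = 0.00221) and 0.726-fold in C151S against wild-type mice (log2 fold change -0.46, SE 0.12, adjusted p = 0.0447) by edgeR. The knockout difference held in 10 of 10 fits without 1 mouse. The C151S difference in Sqstm1 passed in 2 of 10 fits without 1 mouse (adjusted p 0.015 to 0.107). Its adjusted p was 0.00369 by DESeq2 and 0.016 in a fit of all 30 libraries. With the replicate number as a block it was 0.0591 (log2 fold change -0.47, edgeR). In edgeR the adjusted p was 0.33 (log2 fold change -0.24) with the Arntl set as covariate and 0.377 (log2 fold change -0.26) with only the high Arntl set. Of the 5 C151S mice in this comparison 3 are of the low set. In each of the 4 mutant groups, all mice of the low Arntl set had less Sqstm1 than all mice of the high set, for example 302 to 325 against 389 to 413 CPM in CDDO-Me-treated C151S mice. Under vehicle the knockout groups did not overlap with wild-type either, and the difference fell short of the threshold in edgeR (log2 fold change -0.38, SE 0.12, adjusted p = 0.0537) but not in DESeq2 (adjusted p = 0.0223). With the Arntl set as covariate, and with only its high set, that difference in Sqstm1 was -0.20 (adjusted p = 0.381 in both, edgeR). For CDDO-Me against vehicle the log2 fold change of Sqstm1 was 0.20 in wild-type (SE 0.099, adjusted p = 0.327), -0.03 in C151S (SE 0.16, adjusted p = 0.949), and -0.11 in knockout mice (SE 0.13, adjusted p = 0.854), none of which passed. Mrnip overlaps Sqstm1, and Tmem184a overlaps Mafk, on the other strand, and both were counted apart.

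**Figure D3:**
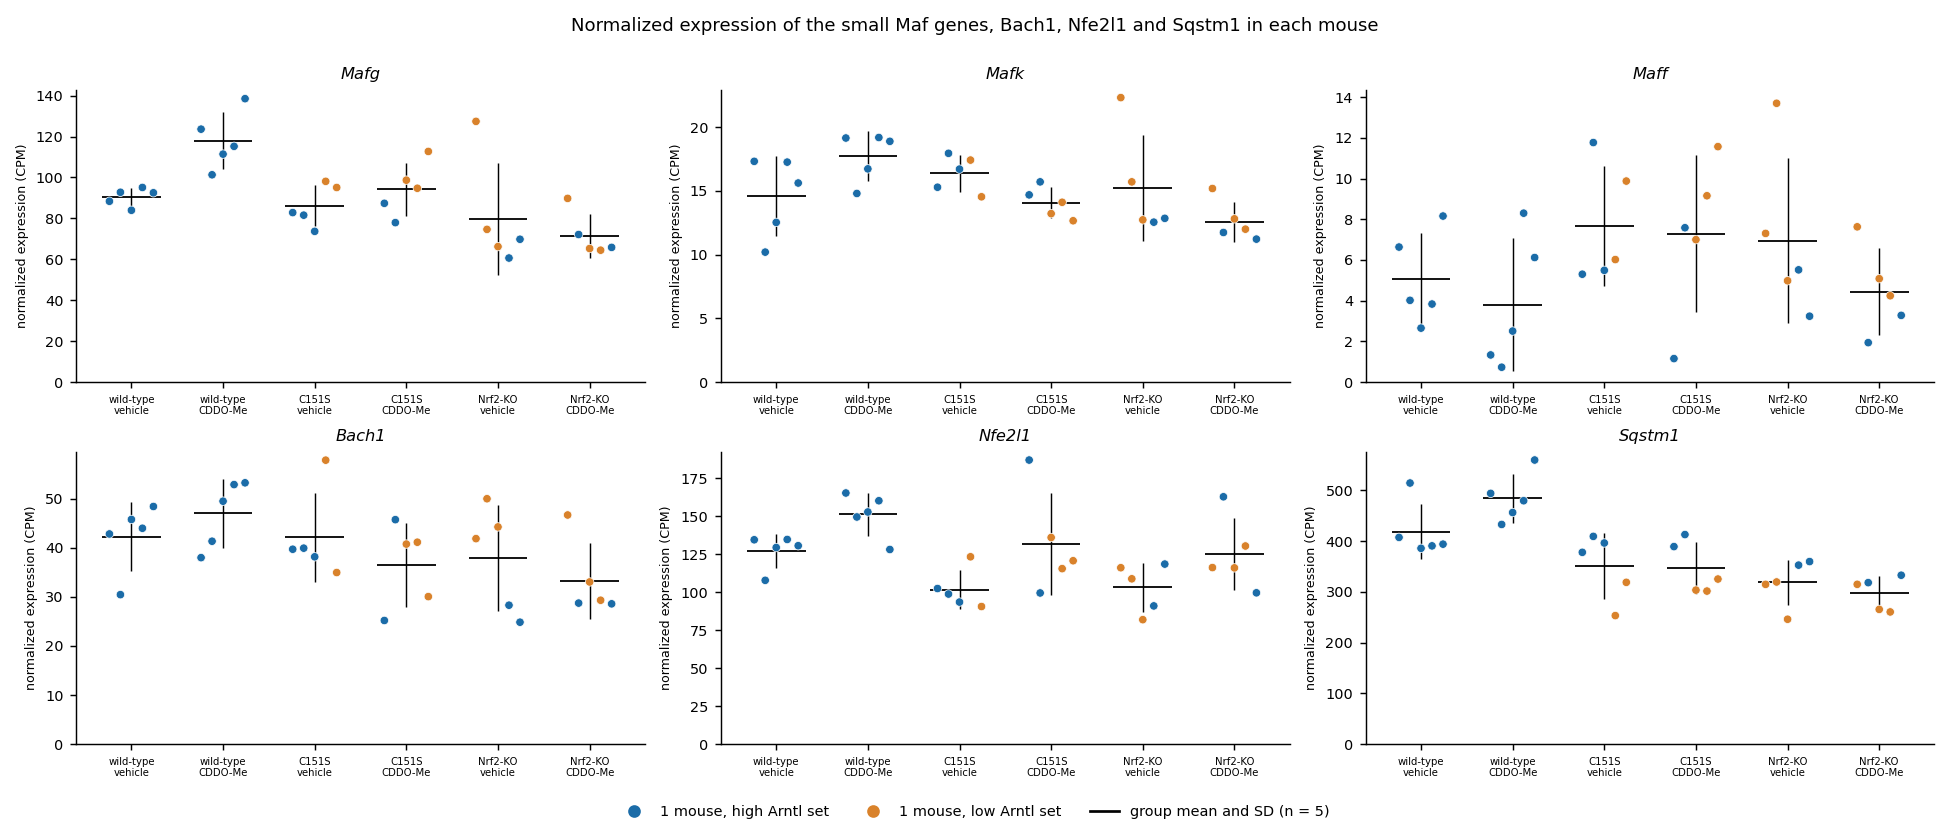
CPM of Mafg, Mafk, Maff, Bach1, Nfe2l1, and Sqstm1 in each mouse by genotype and treatment, with blue points for the high and orange points for the low Arntl set and black lines for the group mean and SD (n = 5). Mafg is higher in the 5 CDDO-Me-treated than in the 5 vehicle-treated wild-type mice, and within each mutant group the orange points of Sqstm1 lie below the blue ones.

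The members were then counted against all genes tested. A gene was called at an adjusted p under 0.05 and a log2 fold change of at least 0.5 in size, and also counted at the adjusted p alone. In wild-type mice CDDO-Me changed 2.75% of 13697 genes by the first rule and 4.23% by the second. Of the 10 members it changed 0 and 2, Nfe2l2 and Mafg (0 and 3 by DESeq2). An unadjusted p under 0.05 in edgeR was seen for 4 members, beside 17.0% of all genes. In C151S mice 0.092% of 14128 genes and 0 members were called (2 at an unadjusted p under 0.05 in edgeR, beside 13.7% of all genes, and 0 by DESeq2). In knockout mice 0.0% of 14474 genes and 0 members were called (0 members by DESeq2), although DESeq2 called 52 genes. An unadjusted p under 0.05 in edgeR was seen for 1 member and for 1136 genes, which is 7.85% of all genes. The differences between responses called 0.48% of 15010 genes for wild-type minus C151S, 0.266% for wild-type minus knockout, and 0.0133% for C151S minus knockout, with 0 members in each by edgeR and DESeq2. At an unadjusted p under 0.05 in edgeR there were 1, 2, and 0 members, beside 8.31%, 6.28%, and 4.92% of all genes. The median log2 fold change of the members was 0.17 in wild-type, -0.06 in C151S, and -0.14 in knockout mice, beside -0.007, -0.005, and -0.007 for all genes.

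**Figure D4:**
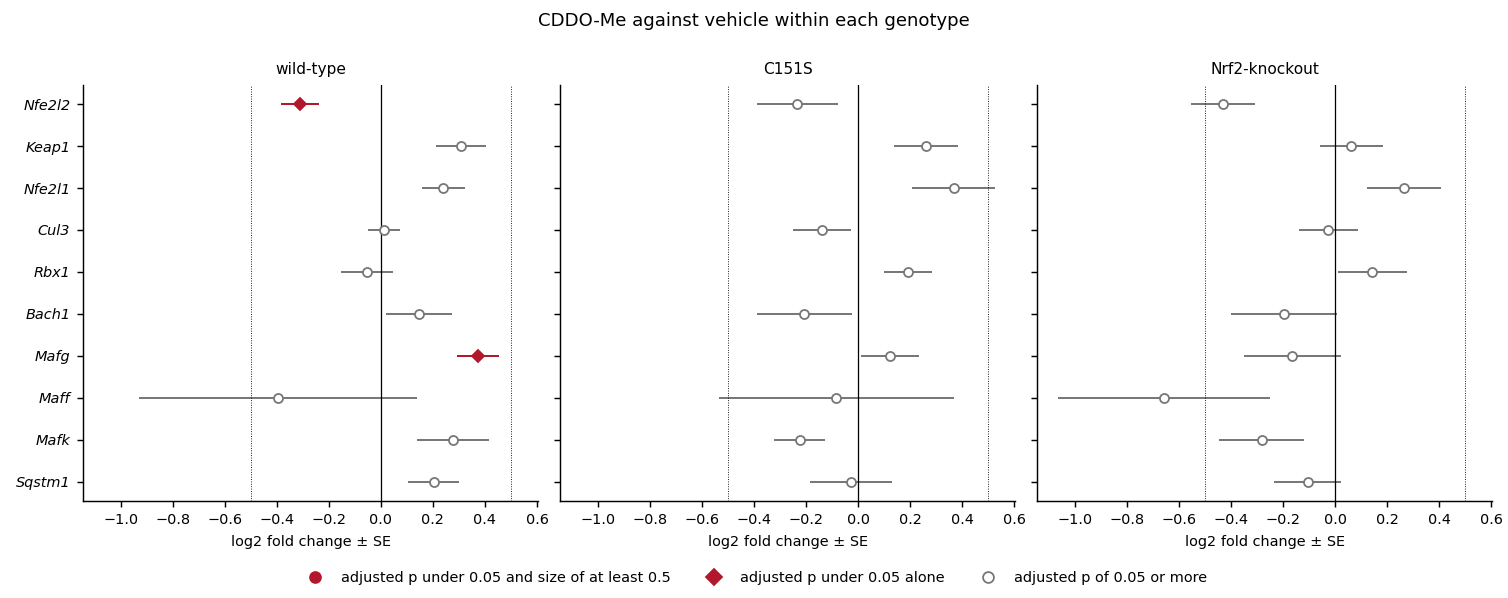
Log2 fold change (points) and SE (bars) of each member for CDDO-Me against vehicle in each genotype, 5 mice a group, with dotted lines at a size of 0.5. Filled diamonds mark Nfe2l2 at -0.31 and Mafg at 0.37 in wild-type mice, the 2 changes with an adjusted p under 0.05, both inside the dotted lines.

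Between genotypes under vehicle, 4.84% of 13946 genes were called in C151S against wild-type mice (8.32% at the adjusted p alone) and 0 members by either rule (0 and 2 by DESeq2). An unadjusted p under 0.05 in edgeR was seen for 3 members, beside 26.5% of all genes. In knockout against wild-type mice 10.4% of 14030 genes (16.4% at the adjusted p alone) and 1 of 10 members were called, the disrupted gene Nfe2l2 itself (3 at an unadjusted p under 0.05, beside 33.5% of all genes, and 1 and 2 by DESeq2). In knockout against C151S mice 0.349% of 14323 genes and 1 member, again Nfe2l2, were called. After CDDO-Me, 5.0% of 13844 genes and 0 members were called in C151S against wild-type mice. At the adjusted p alone these were 6.78% and 1 member, Sqstm1, and DESeq2 gave 0 and 2 members by the 2 rules. An unadjusted p under 0.05 in edgeR was seen for 6 of the 10 members, beside 24.6% of all genes. Knockout against wild-type mice had 9.44% of 13935 genes called (12.6% at the adjusted p alone) and 3 of 10 members, Nfe2l2, Mafg, and Sqstm1, with Keap1 and Mafk added at the adjusted p alone. That count of 3 was 6 with only the high Arntl set, and 6 without replicate 1 of the CDDO-Me-treated knockout mice, the highest of its group in Keap1, Bach1, Mafg, and Mafk, with Keap1, Bach1, and Mafk added in both. Knockout against C151S mice had 0.162% of 14186 genes and 1 member, Nfe2l2. The median of the members after CDDO-Me was -0.45 in knockout and -0.24 in C151S against wild-type mice, beside 0.03 for all genes. Comparisons that share a group of mice are not independent of each other.

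**Figure D5:**
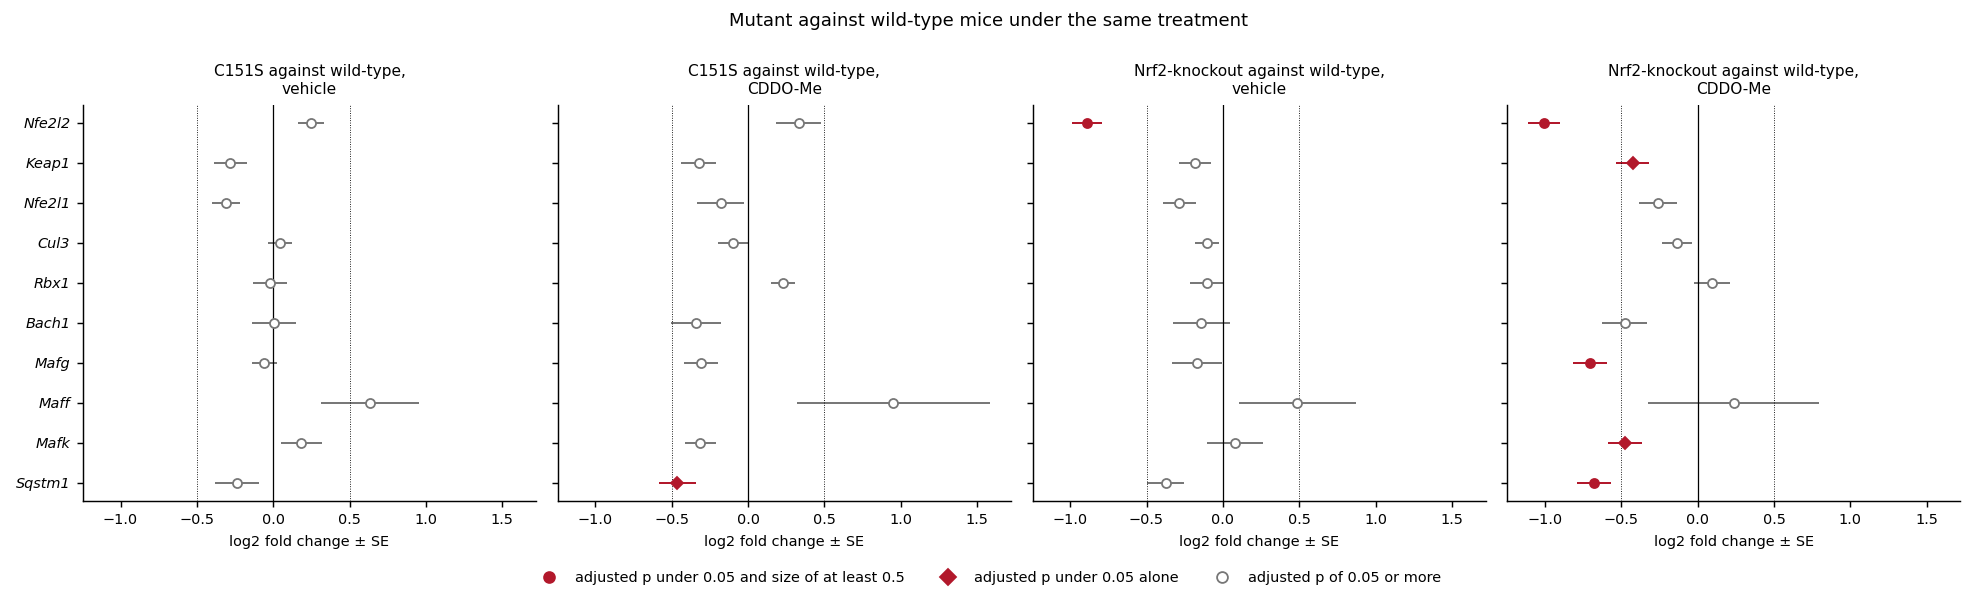
Log2 fold change (points) and SE (bars) of each member in C151S and in Nrf2-knockout mice against wild-type mice given the same treatment, 5 mice a group, with dotted lines at a size of 0.5. Filled circles mark Nfe2l2 in knockout mice under both treatments and Mafg (-0.70) and Sqstm1 (-0.68) after CDDO-Me, and filled diamonds mark Keap1, Mafk, and, in C151S mice, Sqstm1, which passed at the adjusted p alone.

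Some cell type markers differed between vehicle-treated knockout and wild-type mice, beside the lower Nfe2l2, and 10.4% of all genes were called in that comparison. No hepatocyte, Kupffer cell, cholangiocyte, lymphocyte, or platelet marker was called there in edgeR. Of 4 endothelial markers 3 were higher than in wild-type mice, Pecam1, Stab2, and Lyve1, and their sum was 158 ± 43.2 against 91.0 ± 6.33 CPM (SD, n = 5), with Stab2 the most abundant. Of 4 stellate cell and fibroblast markers, Col1a1 (log2 fold change 1.34, SE 0.24, adjusted p = 0.00474) and Des were higher, with sums of 102.7 ± 28.0 against 74.6 ± 11.7 CPM, most of it from Reln. The neutrophil markers S100a8 and S100a9 were also higher, with sums of 3.64 ± 2.33 against 0.989 ± 0.343 CPM, while Ly6g was at the floor of 3 counts in all libraries. Of 3 erythroid markers tested, Hbb-bs and Hba-a1 were lower, with sums of 169 ± 31.6 against 252 ± 35.4 CPM over 4 genes, led by Alas2. In vehicle-treated C151S against wild-type mice, 0 of the 4 endothelial markers were called in edgeR, beside 4.84% of all genes, and 2 by DESeq2. The sum of these 4 was 123 ± 27.6 CPM in those C151S mice, with a median log2 fold change of 0.40. After CDDO-Me, Pecam1 was higher in knockout than in wild-type mice (log2 fold change 0.57, SE 0.17, adjusted p = 0.0451, edgeR). It was the 1 of 4 endothelial markers called there, beside 9.44% of all genes. Marco, a Kupffer cell receptor, was lower in knockout (log2 fold change -2.14, SE 0.36, adjusted p = 0.00256) and in C151S mice (log2 fold change -1.13, SE 0.28, adjusted p = 0.0345) than in wild-type mice. Marco was the only one of 5 Kupffer cell markers called there, beside 9.44% (knockout) and 5.0% (C151S) of all genes. The medians of the 5 had the other sign, 0.34 in knockout and 0.51 in C151S mice. Their sum after CDDO-Me, with Clec4f the most abundant, came to 97.1 ± 16.6, 103 ± 29.9, and 87.2 ± 30.8 CPM in wild-type, C151S, and knockout mice. In wild-type mice S100a8 was higher after CDDO-Me and Alas2 was the 1 of 3 erythroid markers called (log2 fold change -0.60), beside 2.75% of all genes, while the median of the 3 was 0.06. The hepatocyte gene Tat was higher in C151S than in wild-type mice after CDDO-Me (log2 fold change 1.06, SE 0.26, adjusted p = 0.031, edgeR). It was the 1 of 6 hepatocyte markers called there, beside 5.0% of all genes. The markers of cholangiocytes, lymphocytes, and platelets had no called gene in any comparison. Their summed levels were at most 8.04, 2.99, and 1.08 CPM as group means. The part of these markers in the values of the members was not tested.

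Genes known as canonical targets of NRF2 were measured in the same mice. The list was chosen with earlier results of these data known. It holds Nqo1, Gstm1, Gpx2, Cbr3, and Srxn1, which the study reported as induced in wild-type mice, so its counts are no independent result. Of 15 genes tested, 12 rose after CDDO-Me in wild-type mice, beside 2.75% of all genes called, with a median log2 fold change of 1.52. Among them were Cbr3 (5.24), Gstm1 (2.42), Ugdh (1.52), and Srxn1 (2.19). In C151S mice 0 of 14 and in knockout mice 0 of 13 were called, beside 0.092% and 0.0% of all genes (0 by DESeq2). At an unadjusted p under 0.05 in edgeR there was 1 in each, beside 13.7% and 7.85% of all genes. Nqo1, which encodes a quinone reductase, was 64.4 ± 25.0 CPM in CDDO-Me-treated wild-type mice beside 7.20 ± 2.38 CPM after vehicle and 7.05 ± 1.04 CPM in CDDO-Me-treated C151S mice. In the same wild-type mice Mafg changed by 0.37 and Nfe2l2 by -0.31 on the log2 scale, each less in size than these 4 target genes. Under vehicle, where 4.84% and 10.4% of all genes were called, 3 of 14 target genes were lower in C151S than in wild-type mice, Me1 (-1.41), Srxn1 (-0.56), and Gstm1 (-0.57), and 9 of 14 were lower in knockout mice, among them Gstm1 (-2.62), Ugdh (-1.65), and Txnrd1 (-0.90). After CDDO-Me 14 of 15 were lower in each mutant than in wild-type mice, beside 5.0% (C151S) and 9.44% (knockout) of all genes called. Between the mutants, Nqo1 (-1.77 under vehicle and -1.46 after CDDO-Me) and Gstm1 (-2.06 and -1.91) were lower in knockout mice under both treatments, and Ugdh and Gsta1 under vehicle. The difference between responses passed for 10 genes against C151S and 8 against knockout mice, beside 0.48% and 0.266% of all genes.

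Relatives of the members in the Cap n Collar and BACH families were measured beside them. Bach2, the lymphoid paralog of Bach1, fell in wild-type mice after CDDO-Me, from 14.01 ± 7.23 to 5.03 ± 1.02 CPM (SD, n = 5; log2 fold change -1.48, SE 0.29, adjusted p = 0.0116, edgeR), and was also lower in vehicle-treated knockout than wild-type mice (log2 fold change -1.20, SE 0.32, adjusted p = 0.029). Nfe2l3, which encodes NRF3, was higher in vehicle-treated knockout mice (log2 fold change 2.24, SE 0.52, adjusted p = 0.0158) at 1.199 ± 0.825 CPM, with 3 to 13 counts per wild-type library. Nfe2, the hematopoietic member, was lower in CDDO-Me-treated C151S than wild-type mice (log2 fold change -2.42, SE 0.55, adjusted p = 0.0238) at 0.597 ± 0.401 against 3.25 ± 1.97 CPM. Bach2 and Nfe2 are best known from blood and immune cells, and the part of such cells in these values was not tested.

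The ligases and modifiers that act on NRF2 or KEAP1 were read as a list of 18 cullin ligase and neddylation genes. After CDDO-Me 0 of the 18 were called in any genotype (0 by DESeq2), beside 2.75%, 0.092%, and 0.0% of all genes in wild-type, C151S, and knockout mice. At an unadjusted p under 0.05 in edgeR there were 3, 3, and 1 of the 18, beside 17.0%, 13.7%, and 7.85% of all genes. In vehicle-treated knockout against wild-type mice 3 of 18 passed at the adjusted p alone, beside 16.4% of all genes. At an unadjusted p under 0.05 in edgeR there were 9 of 18, beside 33.5% of all genes. The median of the list was -0.15 beside 0.01 for all genes. Of the 18, 1 was called in each mutant against wild-type mice under each treatment. The shares of all genes called were 4.84% (C151S) and 10.4% (knockout) under vehicle and 5.0% and 9.44% after CDDO-Me. Dcun1d1, which helps to attach NEDD8 to cullins, was lower after CDDO-Me in C151S (log2 fold change -0.59, SE 0.14, adjusted p = 0.0261) and in knockout mice (log2 fold change -0.75, SE 0.16, adjusted p = 0.00986) than in wild-type mice, whose mean was 34.2 ± 5.61 CPM beside 22.4 ± 3.22 and 20.01 ± 4.02 CPM. Syvn1, the HRD1 ubiquitin ligase listed for both NRF2 and NRF1, was lower in vehicle-treated C151S mice (log2 fold change -0.90, SE 0.25, adjusted p = 0.0498), where 1 wild-type mouse at 189.9 CPM lies far above the group mean of 110.9 CPM, and the deubiquitinase gene Usp11 was higher in vehicle-treated knockout mice (log2 fold change 0.65, SE 0.21, adjusted p = 0.0498). Of 7 genes that process NRF1, Syvn1 was the only one called in edgeR, in vehicle-treated C151S mice, beside 4.84% of all genes. Under vehicle 3 of the 7 passed at the adjusted p alone in C151S and 3 in knockout against wild-type mice. The shares of all genes by that rule were 8.32% and 16.4%. At an unadjusted p under 0.05 in edgeR there were 6 and 5 of the 7, beside 26.5% and 33.5% of all genes. The medians of the list were -0.25 and -0.35, beside 0.01 for all genes in both. Of 12 genes of proteins that bind KEAP1 or NRF2, 1 was called after CDDO-Me in wild-type mice, and 1 in C151S and 2 in knockout mice against wild-type mice after CDDO-Me, beside 2.75%, 5.0%, and 9.44% of all genes. Of these, Mcm3, a replication factor, fell in wild-type mice after CDDO-Me (log2 fold change -0.58, SE 0.14, adjusted p = 0.0373), Brca1 was higher in both mutants than in wild-type mice after CDDO-Me (1.31 in C151S and 1.47 in knockout mice), and Cdkn1a, the gene of p21, was higher in knockout mice (3.72, SE 0.93), with values from 2.16 to 71.6 CPM in that group.

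Of 15 autophagy genes listed beside Sqstm1, 1 was called in each mutant against wild-type mice after CDDO-Me, beside 5.0% (C151S) and 9.44% (knockout) of all genes. It was Ulk1, a kinase that starts autophagy, which was higher in C151S (log2 fold change 0.72, SE 0.18, adjusted p = 0.0325) and in knockout mice (log2 fold change 0.84, SE 0.15, adjusted p = 0.00409) than in wild-type mice. The wild-type mean of Ulk1 was 105.0 ± 21.4 CPM after vehicle and 68.1 ± 16.9 CPM after CDDO-Me. Of 18 coactivator, corepressor, and other basic leucine zipper genes tested, 2 were called against wild-type mice in vehicle-treated C151S, in vehicle-treated knockout, and in CDDO-Me-treated knockout mice, beside 4.84%, 10.4%, and 9.44% of all genes. Atf4, the factor of the integrated stress response that can pair with NRF2, was lower than in wild-type mice in vehicle-treated C151S (-0.53), vehicle-treated knockout (-0.61), and CDDO-Me-treated knockout mice (log2 fold change -0.94, SE 0.11, adjusted p = 0.000225). Its mean was 128 ± 13.0 CPM in CDDO-Me-treated wild-type and 65.9 ± 9.37 CPM in CDDO-Me-treated knockout mice, with no overlap. Smarca4, the BRG1 chromatin remodeler that serves NRF2 at Hmox1, was lower in vehicle-treated C151S mice (log2 fold change -0.51, SE 0.084, adjusted p = 0.00526), and Jun was lower in vehicle-treated knockout mice (-1.59). Of 10 genes of kinases that act on NRF2 or on the signalling around it, 1 was called under vehicle in each mutant against wild-type mice, beside 4.84% (C151S) and 10.4% (knockout) of all genes. It was Fyn, higher in C151S (log2 fold change 0.70, SE 0.14, adjusted p = 0.0126) and in knockout mice (log2 fold change 0.83, SE 0.15, adjusted p = 0.00479) than in wild-type mice.

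The genes near the 2 mutated loci were examined because a region around a mutated allele can be inherited with it. Within 2 Mb of the start of Nfe2l2, 0 of 15 genes tested were called in knockout against wild-type mice under either treatment, beside 10.4% of all genes under vehicle and 9.44% after CDDO-Me. In C151S against wild-type mice 1 of 16 was called under vehicle (6.25% beside 4.84% of all genes), the noncoding gene Gm13657. It lies on chromosome 2 from 75777188 to 75782306 (log2 fold change 0.61, adjusted p = 0.0444 by edgeR). Within 2 Mb of Keap1, 2 of 65 genes were called in C151S mice under vehicle, Smarca4 and Anln, which is 3.08% beside 4.84% of all genes, and 2 of 66 after CDDO-Me, Angptl8 (1.53) and A230050P20Rik (-0.86). Knockout mice, in which Keap1 is not mutated, had 7 of 65 (10.8%) and 5 of 67 (7.46%) called there, Tmem205 (-0.74 and -0.91) and Col5a3 (-0.84 and -1.32) under both treatments. Zfp809, Icam1, and Qtrt1 were among the 7, and Rab3d, A230050P20Rik, and Pde4a made up the 5. In these comparisons the share near Keap1 was 10.8% beside 10.4% for all genes in vehicle-treated knockout mice. It was below that of all genes in the other 3, and Smarca4 lies 0.377 Mb from Keap1. The part of a region inherited with either allele in these values was not tested.

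Correlations over the 30 libraries describe which members and genes have a like pattern. They rest on the same libraries and on group differences, and no p is given. Among the members, Keap1 and Nfe2l1 had a Pearson r of 0.697 (0.431 after group means were removed), Keap1 and Mafg 0.671 (0.486), and Mafg and Mafk 0.626 (0.535). For Nfe2l2 and Keap1 r was -0.054 over all libraries and -0.584 within groups. Removing group means leaves the split by Arntl set inside the mutant groups, and its part in values within groups was not tested. Over all genes tested, the closest to Nfe2l2 were Aox3 (0.844), an aldehyde oxidase gene, 9130409I23Rik (0.835), and Adgrg2 (0.828). Within groups the values were 0.666 for 9130409I23Rik and 0.495 for Adgrg2. Adgrg2 had few counts, from 5 in a vehicle-treated knockout to 42 in a vehicle-treated C151S library. For Aox3 the value within groups was 0.089, so that its likeness lay in the group means, from 792 ± 130 CPM in vehicle-treated wild-type to 121 ± 82.3 CPM in CDDO-Me-treated knockout mice. The closest to Keap1 were Polr2i (0.896), Wwc1 (0.893), and Opa3 (0.883), those to Mafg were Pbld2 (0.876), Hnf4aos (0.863), and Asgr2 (0.860), and those to Sqstm1 were Rhod (0.895), Gtf2ird1 (0.891), and Tubb2a (0.888), all with values within groups of 0.677 to 0.867.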

How the data were processed

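RNA-seq was performed on livers of 30 mice, 5 in each of 6 groups of genotype and treatment, grouped by their labels. Read pairs were aligned by the authors to mm10 with STAR 2.7.7, and raw counts per gene were deposited for the strand of the library and GENCODE release M23, as whole numbers with no normalization. The 4 summary lines of STAR, which hold 19.4% to 34.1% of the reads, were left out. Reads are not marked by molecular identifiers, so the floor of 3 counts covers counting error only, and reads with several positions are not in the counts. Symbols and exons came from GENCODE M21 (GRCm38), which has 55154 of the 55335 genes.

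Each pair of groups was fitted alone with edgeR 4.0.16 (R 4.3.3): filterByExpr, trimmed mean of M values, and the quasi-likelihood F-test in its legacy form, with Benjamini-Hochberg adjustment over all genes tested. Differences between responses were contrasts in a fit of all 30 libraries. All 10 members passed the filter in each comparison. Standard errors were taken as the size of the log2 fold change over the root of F. CPM were scaled by the factors of the 30-library fit, and log2 CPM used a prior count of 2. The fits were tested on simulated counts. The dates of isolation, a covariate of the study, were not used here.

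The members and lists were chosen with earlier results of these data known. Named genes are the members, Arntl, up to 4 called genes per list and comparison with the lowest adjusted p, the 3 genes most correlated with Nfe2l2, Keap1, Mafg, and Sqstm1, and up to 5 called genes within 2 Mb of Nfe2l2 or Keap1, and some genes that this rule names are not reported here. Alternatives were DESeq2 1.42.0, upper-quartile normalization, no filter, a replicate block, 1 fit of 30 libraries, the Arntl set as a covariate or its high side only, calls at the adjusted p alone, and fits without each mouse in turn. Promoter sequences are from RefSeq (GRCm38.p6).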

Additional observations from a re-analysis of the deposited data

Results flagged for a closer look

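A mouse was singled out where its gap to the nearest of the other 4 of its group, divided by the range of the group, passed Dixon's 95% critical value. Chance gives about 1 in 20 such groups, and 6 of 60 were seen. Sqstm1 was 514 CPM in replicate 2 of the vehicle-treated wild-type mice beside 386 to 407 CPM in the others. The same mouse had the lowest Nfe2l1 of its group, 107.9 CPM beside 129.5 to 134.8 CPM. Replicate 1 of that group had the lowest Rbx1, 20.3 CPM beside 27.4 to 29.4 CPM. Bach1 was 57.8 CPM in replicate 4 of the vehicle-treated C151S mice beside 34.9 to 39.9 CPM, and 46.7 CPM in replicate 1 of the CDDO-Me-treated Nrf2-knockout mice beside 28.6 to 33.02 CPM. Mafg was 127 CPM in replicate 1 of the vehicle-treated Nrf2-knockout mice beside 60.6 to 74.6 CPM. The 3 mice with the high Bach1 or Mafg values belong to the low Arntl set, and the part of that set was not tested. No member's response to CDDO-Me differed between genotypes after adjustment.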

How the results depend on the processing

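Settings changed the number of calls and the values of some members. With the Arntl set as covariate, Bach1 between vehicle-treated knockout and wild-type mice went from -0.14 to -0.64 on the log2 scale. Few members were called to begin with, so keeping a side of the threshold says little about the size of a value. Over the members' fold changes, 866 of 880 values under other settings and 1492 of 1500 without 1 mouse kept their side of the threshold. Of these, 31 and 58 had the other sign, none of them called in either fit. The 2 that lost their call were Nfe2l2 between Nrf2-knockout and C151S mice with only the high Arntl set, -1.29 under vehicle (adjusted p = 0.0817) and -1.08 after CDDO-Me (adjusted p = 1.0, edgeR), where 2 mice a mutant group remained after CDDO-Me. All 10 wild-type libraries are of the high set, so neither setting on Arntl exists for wild-type treatment. The causes of the changes below were not tested.

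The number of members called after CDDO-Me between knockout and wild-type mice was 3 and became 6 with the Arntl set as covariate, 6 with its high side only, and 5 at the adjusted p alone. Between C151S and wild-type mice after CDDO-Me it went from 0 to 1, and for CDDO-Me in wild-type mice from 0 to 2, at the adjusted p alone. In vehicle-treated knockout against wild-type mice it went from 1 to 2 with the covariate (Bach1 added), and between knockout and C151S mice from 1 to 0 with the high side only under both treatments.

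Among all genes, CDDO-Me in wild-type mice changed 377, against 147 in 1 fit of all 30 libraries and 580 at the adjusted p alone. In C151S mice it changed 13, against 34 in the 30-library fit, 100 by DESeq2, 4 with the covariate, 0 with the high side only, 23 with no filter, and 7 with upper-quartile normalization, and in knockout mice 0, against 11 in the 30-library fit and 52 by DESeq2. C151S and wild-type mice differed under vehicle in 675 genes, against 382 in the 30-library fit, 1904 with the covariate, 2030 with the high side only, and 1160 at the adjusted p alone, and after CDDO-Me in 692, against 1137 by DESeq2, 383 with the covariate, and 294 with the high side only. Knockout and wild-type mice differed under vehicle in 1462 genes, against 954 with the covariate and 2307 at the adjusted p alone. Knockout and C151S mice differed under vehicle in 50 genes, against 99 in the 30-library fit, 180 by DESeq2, 89 with the covariate, 4 with the high side only, and 79 with no filter, and after CDDO-Me in 23, against 126, 118, and 35 in the 30-library fit, by DESeq2, and with no filter, and 0 with the high side only. The response differences of 72, 40, and 2 genes became 113, 85, and 3 by DESeq2 and 40, 22, and 0 with the high side only.

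Without 1 mouse, the genes changed by CDDO-Me numbered 265 to 493 in wild-type, 0 to 22 in C151S, and 0 in knockout mice. Between genotypes they numbered 390 to 1168 (C151S and wild-type), 949 to 2050 (knockout and wild-type), and 29 to 54 (knockout and C151S) under vehicle, and 379 to 1303, 975 to 1487, and 11 to 38 after CDDO-Me. The response differences numbered 50 to 97, 28 to 43, and 1 to 3, and the members called between knockout and wild-type mice after CDDO-Me 3 to 6 (6 without replicate 1 of the knockout mice) and between C151S and wild-type mice 0 to 1 (Sqstm1, without replicate 1 or 2 of the C151S mice). In the other comparisons the number of members called was the same without each mouse.

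The replicate numbers did not meet the bar for pairing, since in no pair of groups were all 5 correlations of the deviations of same-numbered mice over 0.1. Their mean lay between -0.131 and 0.19 over the 9 pairs of groups. The highest was for CDDO-Me in knockout mice, where 3 of 5 were over 0.1, 3 of 5 mice correlated best with their own number, and the mean for other numbers was -0.047. With the replicate block, calls went from 13 to 2 for CDDO-Me in C151S mice, from 50 to 9 and from 23 to 8 between knockout and C151S mice under vehicle and after CDDO-Me, and from 40 to 23 and from 2 to 1 for the response differences of wild-type and of C151S minus knockout, with 0 members gained or lost. At the adjusted p alone, between C151S and wild-type mice after CDDO-Me, Sqstm1 was lost and Mafg gained under the block. Sqstm1 had an adjusted p of 0.0591 (log2 fold change -0.47) with the block and 0.0447 without it in edgeR. For Mafg the values were 0.0499 (log2 fold change -0.31) and 0.118.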
